A study of Mus musculus with 8 samples.

Results

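Elovl3, Hsd3b5, Slco1a1, Cyp2d9 and Selenbp2 are liver genes whose high expression in male mice depends on the pulsatile release of growth hormone (GH). The genes were chosen by symbol, and all 5 were found among the 18095 genes of the count table, each by its Ensembl identifier in the GRCm38 annotation. RNA was sequenced from whole liver of 8 male mice at 12 weeks of age, 4 HFD WT and 4 HFD Inpp4b-/-. Both groups came from dams kept on a high-fat diet (HFD) from before mating until weaning, and the pups stayed on the HFD until they were killed. No mice on another diet and no females were analysed here, so every comparison is between genotypes on HFD. Inpp4b-/- mice lack the lipid phosphatase INPP4B in the whole body, not in hepatocytes alone. Sources differ on the strain background, which is C57BL/6 in the labels and FVB in the paper, and the labels add rRNA removal to the library kit that both name.

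In male mice the pituitary gland releases GH in pulses with quiet intervals between them, whereas in females the hormone is present more continuously. Each pulse acts on the GH receptor of hepatocytes and activates the kinase JAK2 and the transcription factor STAT5B, which enters the nucleus and binds near its target genes. Male-biased liver genes need these pulses and fall when pulses are lost or flattened, and many female-biased genes are kept low by them. Hsd3b5 encodes a 3-ketosteroid reductase and Cyp2d9 a steroid hydroxylase of the cytochrome P450 family, so both act on steroids. Slco1a1 encodes an uptake transporter for bile acids, steroid conjugates and other organic anions. Elovl3 encodes an elongase of very long chain fatty acids, and Selenbp2 a cytosolic selenium-binding protein known to bind acetaminophen metabolites.

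In HFD Inpp4b-/- liver the 5 genes did not move as 1 block. Hsd3b5 was 1.59-fold lower and Selenbp2 3.16-fold lower than in HFD WT, Elovl3 varied too widely between mice to be placed, and Slco1a1 and Cyp2d9 stood at nearly the same level in both genotypes. None of the 5 genes passed both thresholds, a fold change over 1.3 and an adjusted p below 0.1, in edgeR's quasi-likelihood test across all genes (0 of 5, where 1.17% of the 14866 tested genes passed). At an unadjusted p under 0.05 the same test counted 2 of the 5, Hsd3b5 and Selenbp2, where 13.9% of all tested genes were counted. DESeq2 called 1 of the 5, Hsd3b5, where it called 4.04% of 17016 genes.

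HFD WT libraries held 25893430 to 31427831 counts each, and HFD Inpp4b-/- libraries 32738435 to 36662531. Inpp4b itself was counted 6, 20, 5 and 8 times in HFD WT replicates 1 to 4 and 33, 10, 9 and 14 times in the libraries labelled HFD Inpp4b-/-, so it was not lower there. Its difference in mean log2(CPM + 0.1) was 0.37 (two-sided exact permutation test, p = 0.486, n = 4 per genotype), and each direction below rests on the labels. CPM are counts scaled to a total of 1e+06 after TMM normalization. The hepatocyte markers Alb, Apoa1, Apob, Ttr, Serpinc1, Ahsg and Fgb together reached 81431 to 104750 CPM per library. HFD WT replicate 2 stood apart in xenobiotic-inducible genes, with Cyp2b10 at 86.8 CPM where no other library passed 2.25 CPM. For that reason each of the 5 genes is given with and without it.

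The start regions of the genes are shown because Slco1a1 and Cyp2d9 moved together from library to library, Hsd3b5 separated the genotypes, and Selenbp2 differed from its near copy Selenbp1. The windows are from RefSeq on GRCm38.p6, run from 250 bases before to 50 bases after the annotated start, and matched 4 of the 5 genes by symbol, all but Elovl3. Capitals mark TTTATA, the reverse complement of the TATA letters TATAAA, which were searched on both strands.
Hsd3b5, chr3:98645485-98645784, minus strand: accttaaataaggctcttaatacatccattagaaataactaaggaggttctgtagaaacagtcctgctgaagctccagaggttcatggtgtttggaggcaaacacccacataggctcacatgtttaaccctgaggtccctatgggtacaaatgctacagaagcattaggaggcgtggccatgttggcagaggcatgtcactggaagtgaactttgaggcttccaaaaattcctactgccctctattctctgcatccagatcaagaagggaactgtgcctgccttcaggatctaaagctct
Slco1a1, chr6:141946913-141947212, minus strand: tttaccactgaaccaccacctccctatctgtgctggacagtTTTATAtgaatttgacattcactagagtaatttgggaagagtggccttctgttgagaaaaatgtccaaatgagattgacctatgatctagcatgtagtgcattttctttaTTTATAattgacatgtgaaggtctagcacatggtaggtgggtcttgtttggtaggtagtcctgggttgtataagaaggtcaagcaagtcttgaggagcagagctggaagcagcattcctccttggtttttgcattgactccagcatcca
Cyp2d9, chr15:82452127-82452426, plus strand: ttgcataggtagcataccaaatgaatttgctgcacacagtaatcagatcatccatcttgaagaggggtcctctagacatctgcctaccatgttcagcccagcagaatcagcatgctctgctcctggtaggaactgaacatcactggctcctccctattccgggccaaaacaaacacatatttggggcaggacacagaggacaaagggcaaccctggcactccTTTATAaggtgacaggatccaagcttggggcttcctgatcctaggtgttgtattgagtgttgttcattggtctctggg
Selenbp2, chr3:94693323-94693622, plus strand: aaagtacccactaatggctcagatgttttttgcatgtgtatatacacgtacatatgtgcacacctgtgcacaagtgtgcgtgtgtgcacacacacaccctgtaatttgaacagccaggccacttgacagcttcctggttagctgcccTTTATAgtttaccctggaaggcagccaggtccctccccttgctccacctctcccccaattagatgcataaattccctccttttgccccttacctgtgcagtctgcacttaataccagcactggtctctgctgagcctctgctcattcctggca
Selenbp1, chr3:94932833-94933132, plus strand: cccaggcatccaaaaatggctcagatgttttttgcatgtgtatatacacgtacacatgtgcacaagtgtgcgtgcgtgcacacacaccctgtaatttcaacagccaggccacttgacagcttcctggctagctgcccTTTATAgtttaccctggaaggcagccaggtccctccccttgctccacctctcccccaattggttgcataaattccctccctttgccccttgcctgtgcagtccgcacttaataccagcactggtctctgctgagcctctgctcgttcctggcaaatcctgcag

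The exact letters TATAAA were present in 3 of the 4 member windows, on the strand opposite to the gene, and in 13.6% of all 32851 windows of the same length. Near matches on the gene strand, such as TATAAG overlapping the marked stretch of Cyp2d9, were not counted. In Cyp2d9 it lay at bases -28 to -23 from the RefSeq start, in Selenbp2 at -103 to -98, and in Slco1a1 at -209 to -204 and at -99 to -94. The letters TTCNNNGAA, to which STAT5 and the repressor BCL6 can both bind, were in none of the 4 windows and in 8.30% of all windows. CAAAGTCCA, an HNF4A motif, was also in none of the 4, and in 0.475% of all windows. A window without these letters says only that they are not within its 300 bases. The start that RefSeq gives lies 15282 bases from the GENCODE start of the gene for Hsd3b5 and 18940 bases for Cyp2d9, against 17 bases for Selenbp2 and 0 for Slco1a1.

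Hsd3b5 (ENSMUSG00000038092, chr3:98618634-98630252, minus strand) was at 237, 180, 269 and 169 CPM in HFD WT replicates 1 to 4. The HFD Inpp4b-/- replicates 1 to 4 had it at 99.8, 165, 134 and 136 CPM. Every HFD Inpp4b-/- library was thus below every HFD WT library, although the highest of the former and the lowest of the latter were close. Hsd3b5 was the only gene of the 5 whose groups did not overlap, where 8.72% of all tested genes did not overlap and 4.09% were lower in all HFD Inpp4b-/- libraries. Means were 214 ± 47.7 CPM in HFD WT and 134 ± 26.9 CPM in HFD Inpp4b-/- (SD, n = 4 each). The log2 fold change was -0.67 (SE 0.18, 95% confidence interval -1.08 to -0.26), with an adjusted p of 0.164 in edgeR's quasi-likelihood test. DESeq2 gave a similar log2 fold change of -0.68 with an adjusted p of 0.0277, which passes the threshold, so the call depended on the tool. Without HFD WT replicate 2 the edgeR log2 fold change was -0.76 with an adjusted p of 0.118.

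Cyp2d9 (ENSMUSG00000068086, chr15:82433437-82456845, plus strand) was the most abundant of the 5 genes. It was at 1648, 1422, 1961 and 1316 CPM in HFD WT replicates 1 to 4 and at 1505, 1546, 1715 and 1618 CPM in HFD Inpp4b-/- replicates 1 to 4. The HFD WT libraries lay on both sides of the HFD Inpp4b-/- libraries, with replicate 3 above and replicates 2 and 4 below all of them. Means were 1587 ± 285 and 1596 ± 91.8 CPM (SD, n = 4 each). The log2 fold change was 0.01 with a 95% confidence interval from -0.28 to 0.30 and an adjusted p of 0.981 in edgeR's quasi-likelihood test. Its sign was not fixed, as it was -0.05 without HFD WT replicate 2 (edgeR, adjusted p = 0.892).

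Slco1a1 (ENSMUSG00000041698, chr6:141907282-141946962, minus strand) was the steadiest of the 5 genes. HFD WT replicates 1 to 4 had 1177, 1141, 1323 and 1064 CPM, and HFD Inpp4b-/- replicates 1 to 4 had 1159, 1129, 1249 and 1113 CPM. Replicate 3 was the highest in each genotype and replicate 4 the lowest, and the groups overlapped almost fully. Replicates with the same number are not related mice as far as the labels say. Means were 1176 ± 108 CPM in HFD WT and 1162 ± 60.7 CPM in HFD Inpp4b-/- (SD, n = 4 each). The log2 fold change was -0.02 with a 95% confidence interval from -0.23 to 0.20 and an adjusted p of 0.957 in edgeR's quasi-likelihood test, and -0.04 without HFD WT replicate 2 (edgeR, adjusted p = 0.883).

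Elovl3 (ENSMUSG00000038754, chr19:46131897-46135694, plus strand) was dominated by differences between mice. It was at 107, 45.3, 66.5 and 247 CPM in HFD WT replicates 1 to 4, a 5.44-fold range. HFD Inpp4b-/- replicates 1 to 4 had 87.0, 66.5, 119 and 58.6 CPM, all inside that range. The highest and the lowest value of all 8 libraries were thus both in HFD WT. Means were 116 ± 90.5 CPM in HFD WT and 82.9 ± 27.1 CPM in HFD Inpp4b-/- (SD, n = 4 each). The log2 fold change was -0.49 (SE 0.46, 95% confidence interval -1.52 to 0.54) with an adjusted p of 0.682 in edgeR's quasi-likelihood test. Its direction rested on HFD WT replicate 4, without which the log2 fold change was 0.18 (edgeR, adjusted p = 0.843). Without HFD WT replicate 2 it was -0.77 (edgeR, adjusted p = 0.397).

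Selenbp2 (ENSMUSG00000068877, chr3:94693556-94704413, plus strand) had the largest difference of the 5 genes and also the widest spread. It was at 143, 65.8, 172 and 25.8 CPM in HFD WT replicates 1 to 4. Levels in HFD Inpp4b-/- replicates 1 to 4 were 22.5, 14.3, 55.6 and 36.6 CPM. HFD WT replicates 1 to 3 were above all HFD Inpp4b-/- libraries, and replicate 4 lay among them. Means were 102 ± 67.6 CPM in HFD WT and 32.2 ± 18.1 CPM in HFD Inpp4b-/- (SD, n = 4 each). The log2 fold change was -1.66 (SE 0.57, 95% confidence interval -2.93 to -0.39) with an adjusted p of 0.247 in edgeR's quasi-likelihood test and 0.177 in DESeq2. It was -1.83 without HFD WT replicate 2 (edgeR, adjusted p = 0.192) and -1.98 without HFD WT replicate 4 (edgeR, adjusted p = 0.117). In whole liver, fewer cells of a type and less RNA per cell cannot be told apart for any of these genes.

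**Figure D1:**
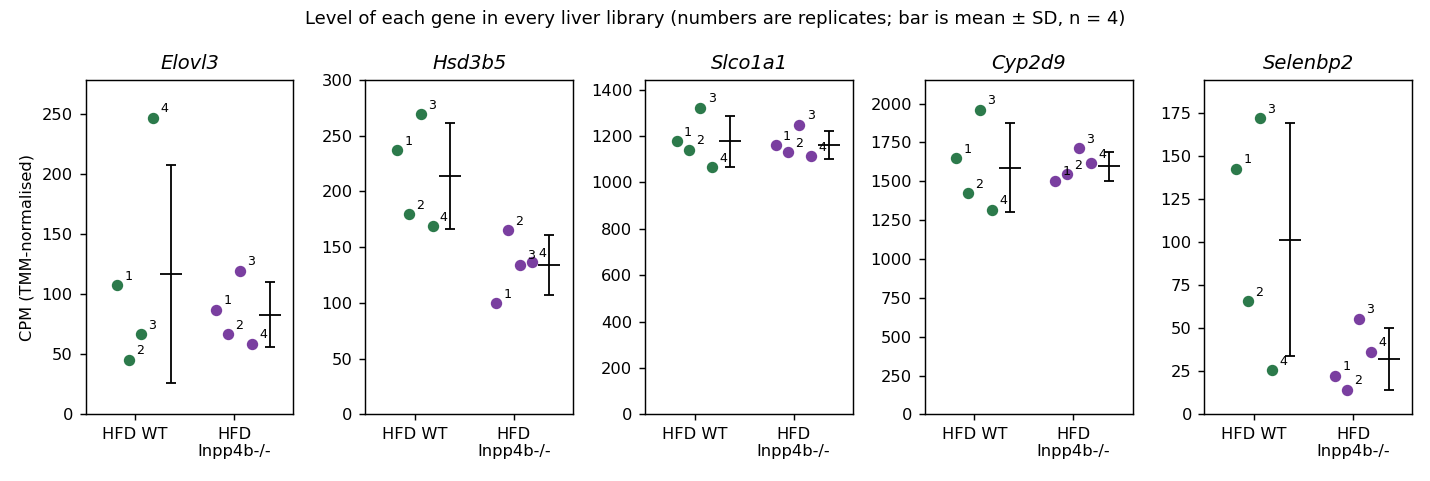
Each panel plots the CPM of 1 gene on a linear axis from 0, with a point for each library, numbered by replicate, and a bar for the mean ± SD of 4 HFD WT (green) or 4 HFD Inpp4b-/- (purple) livers. Hsd3b5 separates the genotypes, Selenbp2 does so except for HFD WT replicate 4 at 25.8 CPM, Elovl3 is spread by replicate 4 at 247 CPM, and Slco1a1 and Cyp2d9 overlap.

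The 5 genes differed strongly in how constant they were among mice of 1 genotype. The SD of log2 CPM within genotype was 0.81 for Elovl3 and 1.07 for Selenbp2, larger than in 97.2% and 98.7% of the 11693 tested genes that averaged at least 50 counts per library. It was 0.31 for Hsd3b5, 0.19 for Cyp2d9 and 0.11 for Slco1a1, and the median over those genes was 0.21. Selenbp2 thus varied 12.1-fold over the 8 libraries and Slco1a1 1.24-fold. Per kilobase of exon the order of the levels in HFD WT was Cyp2d9 at 597 CPM per kb, Slco1a1 at 223, Hsd3b5 at 138, Elovl3 at 58.9 and Selenbp2 at 44.8 CPM per kb. The order was the same in HFD Inpp4b-/-, at 600.5, 220.3, 86.5, 42.0 and 14.2 CPM per kb. Cyp2d9 was above Slco1a1 and Slco1a1 above Hsd3b5 in each of the 8 libraries. The lower neighbours in that order were less clearly apart. Elovl3 exceeded Hsd3b5 per kb in HFD WT replicate 4 (1.14 times) and was below it in the other 7 libraries. Elovl3 was 0.444 to 0.864 times Selenbp2 per kb in HFD WT replicates 1 to 3 but 11 times in replicate 4, and it was 1.84 to 5.36 times Selenbp2 in the HFD Inpp4b-/- libraries.

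Averaged over the 5 genes, log2 CPM (prior count 2) was 8.28 ± 0.32 in HFD WT and 7.80 ± 0.25 in HFD Inpp4b-/- (SD, n = 4 each), a difference of -0.48. The mean was 8.54, 7.93, 8.57 and 8.09 in HFD WT replicates 1 to 4 and 7.66, 7.60, 8.16 and 7.79 in HFD Inpp4b-/- replicates 1 to 4. HFD Inpp4b-/- replicate 3 was above HFD WT replicates 2 and 4, so the groups overlapped. The difference ranged from -0.60 to -0.38 when each library was left out in turn, and it was -0.60 without HFD WT replicate 2. Its largest part came from Selenbp2, the gene with the widest spread of the 5. Log2 fold changes in edgeR were -1.66 for Selenbp2, -0.67 for Hsd3b5, -0.49 for Elovl3, -0.02 for Slco1a1 and 0.01 for Cyp2d9. The averaged difference is therefore not a shift shared by all 5 genes. The median log2 fold change of the 5 genes was -0.49, against 0.0027 over all tested genes, and 4 of the 5 were negative. That median was the value of Elovl3, and it was -0.0712 without HFD WT replicate 4 and -0.21 with the replicate number as a block. These are descriptions of genes that were chosen with earlier results in view.

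Across the 8 libraries the abundant members varied together. Pearson's r of log2 CPM was 0.90 between Slco1a1 and Cyp2d9 over 8 libraries, and 0.91 after the mean of its genotype was taken from each value. Selenbp2 followed them, with r of 0.87 with Cyp2d9 and 0.82 with Slco1a1 after genotype means were removed. Hsd3b5 had r of 0.75 with Cyp2d9, 0.52 with Slco1a1 and 0.49 with Selenbp2 on that scale. Elovl3 did not follow, with r between -0.34 and -0.27 to each of the other 4 genes. These values describe 8 libraries that share a normalization and a dissection, and no p is given for them. HFD WT replicate 3 was the highest library for Hsd3b5, Slco1a1, Cyp2d9 and Selenbp2, while HFD WT replicate 4 was the lowest of its genotype for these 4 genes and the highest for Elovl3.

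Relative to the abundant members, Hsd3b5 was also lower in each HFD Inpp4b-/- library. Per kb, Hsd3b5 was 0.247, 0.217, 0.236 and 0.220 times Cyp2d9 in HFD WT replicates 1 to 4. In HFD Inpp4b-/- replicates 1 to 4 it was 0.114, 0.184, 0.135 and 0.145 times Cyp2d9. The HFD WT libraries lay in a narrow band above all HFD Inpp4b-/- libraries. The log2 ratio of Hsd3b5 to Cyp2d9 differed by -0.69 and that to Slco1a1 by -0.66 (two-sided exact permutation tests, p = 0.0286 each, the smallest that 70 arrangements allow, n = 4 per genotype). Over the 18 ratios compared, which were chosen after the values were seen, both had a Benjamini-Hochberg adjusted p of 0.171 in the exact permutation test. With 70 arrangements a ratio could pass only if many of the 18 reached the smallest p, so not passing decides nothing. Cyp2d9 and Slco1a1 hardly differed between genotypes, so both ratios largely repeat the difference of Hsd3b5 itself. The log2 ratio of Slco1a1 to Cyp2d9 differed by -0.04 (exact permutation test, p = 0.60, adjusted p = 0.754).

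Genes of the same families were measured alongside. Of 24 relatives of the 5 genes, 20 passed the expression filter, and Elovl7, Slco1a5, Slco4a1 and Cyp2d34 did not. Of these 20 relatives, edgeR called 0, with 3 at an unadjusted p under 0.05, and DESeq2 also called 0 of them. Their median log2 fold change was 0.01.

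Among 3-beta-hydroxysteroid dehydrogenases, which act on steroids, Hsd3b2 was at 212 ± 35.6 CPM in HFD WT and 157 ± 34.2 CPM in HFD Inpp4b-/-, a log2 fold change of -0.43 (edgeR, adjusted p = 0.289). Hsd3b3 lay in the other direction, with a log2 fold change of 0.61 (edgeR, adjusted p = 0.442), and its groups overlapped. Per kb, Hsd3b5 was 24.2, 10.3, 21.7 and 20.7 times Hsd3b3 in HFD WT replicates 1 to 4, and 7.76, 12.7, 8.86 and 4.27 times in HFD Inpp4b-/- replicates 1 to 4. Only HFD WT replicate 2 lay within the HFD Inpp4b-/- range. The log2 ratio differed by -1.23 (two-sided exact permutation test, p = 0.0571, adjusted p = 0.206).

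Cyp2d10 and Cyp2d26, abundant relatives of Cyp2d9, also stood close to the same level in both genotypes. Their log2 fold changes were 0.10 (95% confidence interval -0.10 to 0.30) and 0.19 (-0.04 to 0.43) with adjusted p of 0.663 and 0.457 in edgeR. Per kb, Cyp2d9 was 0.880 to 1.18 times Cyp2d10 over the 8 libraries. The longest transcripts of both genes were 88.6% identical and their start windows 83.5% identical. Of all 50-base stretches of the longest Cyp2d9 transcript, 29.0% occurred unchanged in another Cyp2d gene or pseudogene, and of the 150-base stretches 1.54%. Reads were 150 bases long, so a small part of the Cyp2d9 counts could have been split among copies.

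Slco1b2, the main liver relative of Slco1a1, was at 1390 ± 217 CPM in HFD WT and 1338 ± 86.9 CPM in HFD Inpp4b-/-. Its log2 fold change was -0.06 with a 95% confidence interval from -0.33 to 0.22 (edgeR, adjusted p = 0.880). The ratio of Slco1a1 to Slco1b2 per kb was 0.696 to 0.912 in the HFD WT libraries and 0.723 to 0.889 in those of HFD Inpp4b-/-. Slco1a4, a transporter that is higher in female liver, was at 21.6, 154, 19.5 and 13.1 CPM in HFD WT replicates 1 to 4 and at 44.7, 13.7, 37.1 and 29.2 CPM in HFD Inpp4b-/- replicates 1 to 4. Replicate 2 set the HFD WT mean, and the log2 fold change of -0.74 (edgeR, adjusted p = 0.697) became 0.77 without it (edgeR, adjusted p = 0.323).

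Among the elongases, Elovl5, which extends polyunsaturated fatty acids, was at 748 ± 269 CPM in HFD WT and 1080 ± 211 CPM in HFD Inpp4b-/-, a log2 fold change of 0.53 (edgeR, adjusted p = 0.356). Per kb, Elovl3 was 0.291, 0.159, 0.172 and 0.388 times Elovl5 in HFD WT replicates 1 to 4. In HFD Inpp4b-/- replicates 1 to 4 it was 0.152, 0.142, 0.158 and 0.0938 times Elovl5. The groups did not overlap on this ratio, although HFD WT replicate 2 and HFD Inpp4b-/- replicate 3 were almost equal. The log2 ratio differed by -0.82 (two-sided exact permutation test, p = 0.0286, adjusted p = 0.171). Elovl1, Elovl2 and Elovl6 had log2 fold changes of 0.06, 0.24 and -0.21, and edgeR called none of them.

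Selenbp1, the near copy of Selenbp2, stood at a higher level and closer between the genotypes. It was at 221, 278, 233 and 186 CPM in HFD WT replicates 1 to 4 and at 224, 224, 289 and 330 CPM in HFD Inpp4b-/- replicates 1 to 4. The groups overlapped, and the log2 fold change was 0.22 with a 95% confidence interval from -0.14 to 0.57 (edgeR, adjusted p = 0.586). Per kb, Selenbp2 was 0.648, 0.237, 0.740 and 0.139 times Selenbp1 in HFD WT replicates 1 to 4 and 0.101, 0.0637, 0.193 and 0.111 times in HFD Inpp4b-/- replicates 1 to 4. The log2 ratio differed by -1.71 (two-sided exact permutation test, p = 0.0571, adjusted p = 0.206), again with HFD WT replicate 4 inside the HFD Inpp4b-/- range. The longest transcripts of the pair were 98.1% identical and the start windows printed here 87.5% identical. Of the 50-base stretches of Selenbp2, 52.0% occurred unchanged in Selenbp1, and of the 150-base stretches 6.94%. How the counting treated reads that match both genes is not given in the sources used here, so the split between the 2 genes is uncertain.

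**Figure D2:**
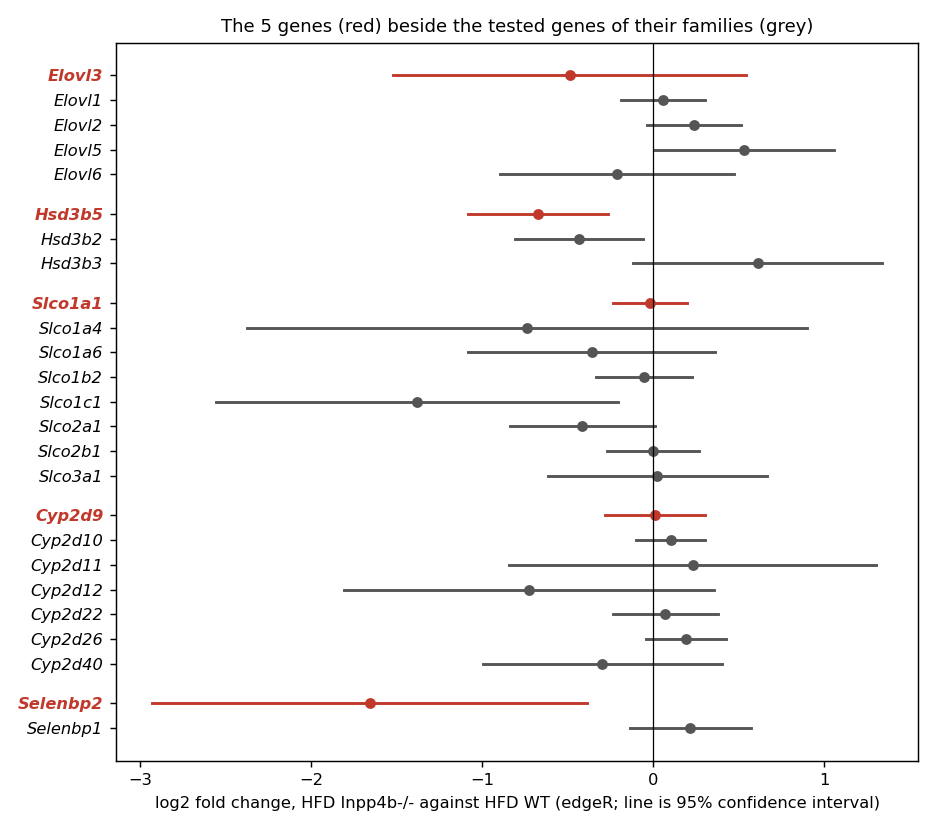
Points are log2 fold changes of HFD Inpp4b-/- against HFD WT from edgeR and lines their 95% confidence intervals, for the 5 genes (red) and the 20 tested relatives (grey), by family. The intervals of Hsd3b5 (-1.08 to -0.26) and Selenbp2 (-2.93 to -0.39) lie below 0 before adjustment, that of Elovl3 spans 0 widely, and those of Slco1a1 and Cyp2d9 are narrow and centred near 0.

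No gene of the GH receptor and its signalling path passed the thresholds. Of 15 tested, edgeR called 0, with 8 at an unadjusted p under 0.05 where 13.9% of all tested genes were. DESeq2 called 2, Igfbp1 and Igfbp3, where it called 4.04% of all genes. The median log2 fold change was 0.13. Ghr, the receptor, was at 651 ± 83.5 CPM in HFD WT and 714 ± 14.0 CPM in HFD Inpp4b-/-, a log2 fold change of 0.13 (95% confidence interval -0.10 to 0.37, edgeR, adjusted p = 0.613). Jak2, Stat5a and Stat5b had log2 fold changes of 0.25, 0.35 and 0.26 and none was called by edgeR. Igf1, the main endocrine product of GH action in liver, was at 770 ± 99.5 and 773 ± 182 CPM, a log2 fold change of 0.01 (95% confidence interval -0.37 to 0.39, edgeR, adjusted p = 0.989).

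Cish, a feedback inhibitor that STAT5 induces soon after a GH pulse, was at 13.9, 8.38, 1.62 and 24.7 CPM in HFD WT replicates 1 to 4. It was at 54.6, 40.6, 18.3 and 51.3 CPM in HFD Inpp4b-/- replicates 1 to 4. All HFD Inpp4b-/- libraries but replicate 3 were above all HFD WT libraries. The log2 fold change was 1.77 (SE 0.62, 95% confidence interval 0.37 to 3.16, edgeR, adjusted p = 0.259). Socs2, another STAT5-induced inhibitor, was at 33.2, 19.5, 16.5 and 83.5 CPM in HFD WT and 22.9, 60.4, 37.3 and 15.6 CPM in HFD Inpp4b-/-, without a separation of the groups (log2 fold change -0.16, edgeR, adjusted p = 0.925). Within HFD WT, replicate 3 was the lowest and replicate 4 the highest for both Cish and Socs2, the reverse of their places for Hsd3b5, Slco1a1, Cyp2d9 and Selenbp2. Igfbp1, a binding protein of insulin-like growth factors that insulin represses, was at 41.6, 5.76, 8.99 and 54.0 CPM in HFD WT and 4.97, 3.13, 7.14 and 3.37 CPM in HFD Inpp4b-/-. Its log2 fold change of -2.57 had an adjusted p of 0.151 in edgeR, 0.0285 in DESeq2 and 0.0518 in edgeR without HFD WT replicate 2.

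Among 13 transcription factors of sex-biased liver expression, edgeR called 1 higher, Foxa2, a pioneer factor of hepatocytes, where 0.552% of all tested genes were called higher. It was at 28.6, 27.4, 25 and 42.3 CPM in HFD WT and 60.7, 86.2, 54.1 and 74.1 CPM in HFD Inpp4b-/-, with no overlap and a log2 fold change of 1.16 (edgeR, adjusted p = 0.0351). Leaving out HFD Inpp4b-/- replicate 2 gave an adjusted p of 0.109 and leaving out HFD WT replicate 1 gave 0.103 (edgeR), neither of which passes the threshold. Bcl6, a repressor in male liver that GH lowers, was at 83.7, 80.9, 107 and 19.0 CPM in HFD WT and 66.7, 22.3, 16.9 and 28 CPM in HFD Inpp4b-/-. The groups overlapped through HFD WT replicate 4 and HFD Inpp4b-/- replicate 1, and the log2 fold change of -1.12 had an adjusted p of 0.386 in edgeR. Hnf4a had a log2 fold change of -0.19 and was not called by edgeR.

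Several other male-biased liver genes were lower in HFD Inpp4b-/-. Of 24 tested, edgeR called 7 lower and 0 higher, where 0.619% of all tested genes were called lower and 0.552% higher. The median log2 fold change was -0.69, and 21 of the 24 were negative. This list, like the other gene lists, was chosen with earlier results of these data known, so its counts are descriptions only. The 7 were Cyp4a12b (-2.97), a fatty acid omega-hydroxylase, Cyp7b1 (-0.96), an oxysterol hydroxylase, Mup20 (-2.61), a major urinary protein that serves as a male pheromone, Serpina1e (-3.38), an antitrypsin paralog, C6 (-1.14), a terminal complement component, Gstp1 (-1.5), a glutathione transferase, and Moxd1, a monooxygenase. Moxd1 was at 2.46 to 31.6 CPM in HFD WT and at most 0.161 CPM in HFD Inpp4b-/-. Mup, Serpina1 and Cyp4a12 genes have near-identical copies and uncertain counts. The count of 7 called lower fell to 4 when HFD Inpp4b-/- replicate 1, HFD WT replicate 1 or HFD WT replicate 3 was left out. Without HFD WT replicate 3, 1 gene of the list was also called higher. The count called lower was 3 without HFD Inpp4b-/- replicate 2 or 3, and 11 without HFD WT replicate 2. Whether the 5 genes differ from the other male-biased genes was not tested.

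Of 15 tested female-biased genes, edgeR called 1 higher, Cyp2b9, where it called 0.552% of all tested genes higher. The median log2 fold change was -0.16, but it turned to 0.85 without HFD WT replicate 2, where edgeR called 3 higher. DESeq2 called 5 of the 23 genes of the list in the table, 4 higher and 1 lower, where it called 4.04% of all genes. Cyp2b9, a cytochrome P450 that is near silent in male liver, was at 1.66, 10.3, 1.21 and 0.845 CPM in HFD WT and 173, 132, 102 and 29.2 CPM in HFD Inpp4b-/-, with no overlap (log2 fold change 4.93, edgeR, adjusted p = 0.0433). The call was lost, at adjusted p of 0.115 to 0.121 in edgeR, when replicate 2 or 3 of HFD Inpp4b-/- or replicate 1 of HFD WT was left out. The others that DESeq2 called higher were at low levels. Slc22a27, an organic anion transporter, was at most 0.346 CPM in HFD WT and at 0.449 to 2.72 CPM in HFD Inpp4b-/-, with no overlap (DESeq2, adjusted p = 0.00228, edgeR, adjusted p = 0.138). Hao2, a hydroxyacid oxidase, was at most 0.0674 CPM in HFD WT and at 0.0842 to 1.25 CPM in HFD Inpp4b-/-, also with no overlap (DESeq2, adjusted p = 0.00378). Cyp2b13, a relative of Cyp2b9, was at most 0.22 CPM in HFD WT and at 0.197 to 1.66 CPM in HFD Inpp4b-/- (DESeq2, adjusted p = 0.0072). Cyp3a16 was the 1 called lower (DESeq2, adjusted p = 0.0655), at 1.26 CPM in HFD WT replicate 2 and at most 0.422 CPM elsewhere. Hao2, Cyp2b13 and Cyp3a16 were below the filter of the edgeR fit.

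**Figure D3:**
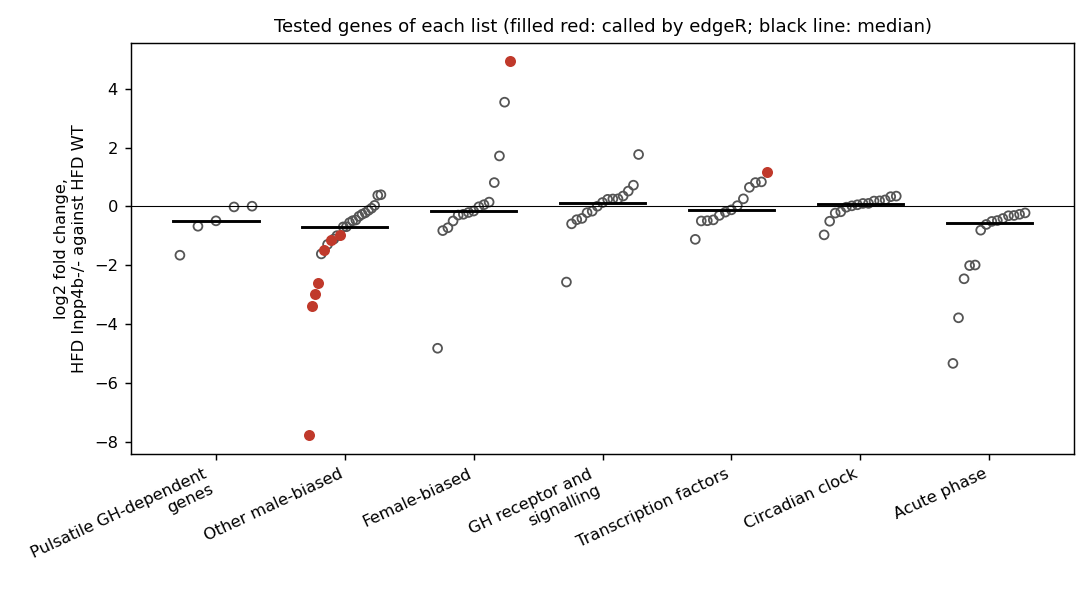
Each circle is the log2 fold change of 1 tested gene in HFD Inpp4b-/- against HFD WT, by gene list, with genes called by edgeR filled red and a black line at the median of the list. The lists were chosen with earlier results of these data known. The pulsatile GH-dependent genes have a median of -0.49 (-0.0712 without HFD WT replicate 4) and 0 called, the other male-biased genes a median of -0.69 and 7 called lower, and the GH receptor and signalling genes are centred at 0.13.

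Lists for time of day, inflammation and cell content were read beside the 5 genes. Circadian clock genes were read because Elovl3 is a known output of the clock. Of 14 tested, edgeR called 0, with 2 at an unadjusted p under 0.05 (13.9% of all tested genes). DESeq2 called 1 of 15, Per1, lower, where it called 4.04% of all genes. Per1 had a log2 fold change of -0.97 in edgeR (edgeR, adjusted p = 0.136, DESeq2, adjusted p = 0.00713). Dbp, the other gene at an unadjusted p under 0.05, was higher, with a log2 fold change of 0.35 (edgeR, adjusted p = 0.268). The median log2 fold change of the clock genes in edgeR was 0.08, and -0.0141 to 0.15 with 1 library left out. Genes of this list lay in both directions, from -0.97 to 0.35, so a small median does not show that they were unchanged. Nr1d1 was at 67.9, 45.1, 62.6 and 161 CPM in HFD WT replicates 1 to 4, in the same order as Elovl3. In HFD Inpp4b-/- replicates 1 to 4 it was at 120, 157, 96.8 and 49.3 CPM. Replicate 4 was the lowest of that genotype for both genes, but replicate 2 was the highest for Nr1d1 and replicate 3 for Elovl3.

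Of 14 acute phase genes edgeR called 0, with 7 at an unadjusted p under 0.05 (13.9% of all genes), and DESeq2 called 2 (4.04% of all genes). All 14 log2 fold changes were negative with a median of -0.56, which was -0.25 without HFD WT replicate 1. Their summed level was 13830.5 to 35156 CPM in HFD WT and 15042 to 17323.5 CPM in HFD Inpp4b-/-. Saa1 was at 2226 and 697 CPM in HFD WT replicates 1 and 4 and at most 79.8 CPM in the other 6 libraries. HFD WT replicate 1 had high and replicate 4 low Selenbp2 and Hsd3b5 for that genotype, and whether these genes follow Saa1 was not tested.

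The 7 Kupffer cell and leukocyte markers had positive log2 fold changes in HFD Inpp4b-/- (median 0.34, and 0.22 to 0.54 with 1 library left out), with a summed level of 34.1 to 89.1 CPM in HFD WT and 67.9 to 112 CPM in HFD Inpp4b-/-. The 5 cholangiocyte markers had a median of 0.49, the 6 stellate cell markers -0.09 and the 5 endothelial markers -0.07. The cholangiocyte median was the value of Krt7, at 0.361 to 1.96 CPM, and Sox9 lay in the other direction at -0.71. In these 4 lists edgeR called 0 genes (1.17% of all tested genes), with 4 at an unadjusted p under 0.05 (13.9% of all tested genes). DESeq2 called 2 (4.04% of all genes), both higher and with no overlap. They were the cholangiocyte marker Spp1 (DESeq2, adjusted p = 0.0360) and the stellate cell marker Lrat (DESeq2, adjusted p = 0.0310). The 7 hepatocyte markers had a median of 0.03, with a sum of 81431 to 89164 CPM in HFD WT and 86339.9 to 104750 CPM in HFD Inpp4b-/-. Of 5 erythroid genes edgeR called 1, Hba-a2, lower, where 0.619% of all tested genes were called lower. Hba-a2 was low, at 0.806 to 5.09 CPM in HFD WT and 0.237 to 0.583 CPM in HFD Inpp4b-/-. The list had no shared direction, with 3 of the 5 positive and a median of 0.10. Hba-a1 was at 38.2 to 207 CPM in HFD WT and 132 to 225 CPM in HFD Inpp4b-/-. Of 4 adipocyte markers only Cidec was in the count table, at 4.22 to 15.7 CPM in every library, so adipocyte content was read from 1 gene. The part of inflammation, time of day or cell content in the values of the 5 genes was not tested.

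**Figure D4:**
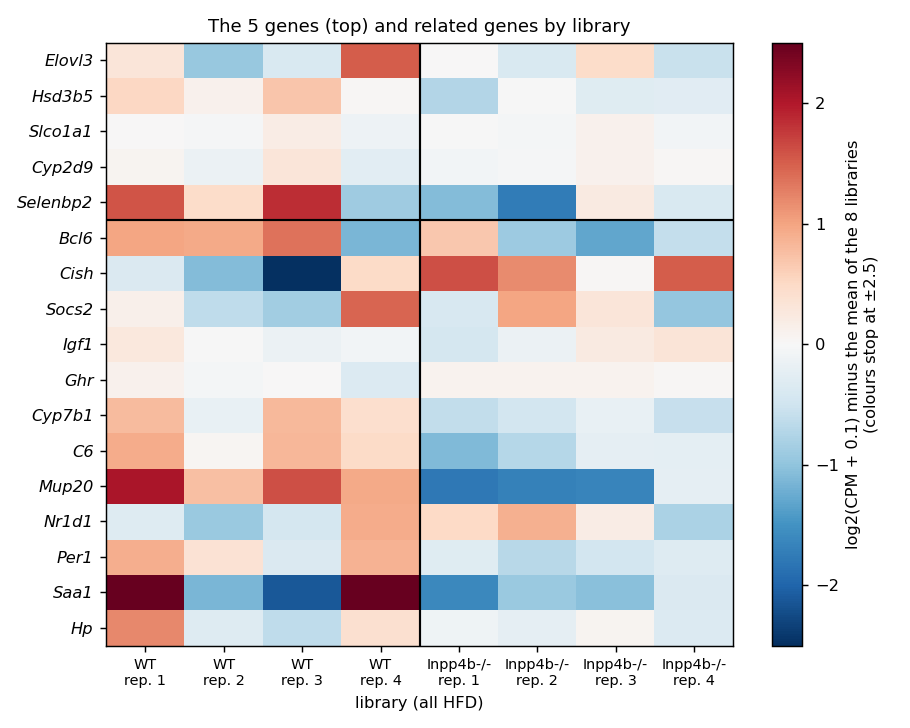
Colours give log2(CPM + 0.1) minus the mean of the 8 libraries for each gene (rows) and library (columns), with red above and blue below the mean and colours ending at ±2.5. In the top 5 rows HFD WT replicates 1 and 3 are red for Selenbp2 and Hsd3b5, replicate 4 is red for Elovl3 alone, and Slco1a1 and Cyp2d9 stay pale throughout, while Cish is mostly red and Mup20 blue in HFD Inpp4b-/-.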

How the data were processed

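Liver RNA of 8 male mice, 4 HFD WT and 4 HFD Inpp4b-/-, was sequenced with 150-base paired-end reads. The authors aligned the reads to GRCm38 with HISAT2, counted reads per gene with HTSeq and deposited raw counts for 18095 genes, and 0 columns were left without a sample. The annotation release and the strand setting of the counting are not given in the sources used here. A deposited table of normalized values held the same counts divided by a constant of each library and was not used. Genotype, age and replicate came from the labels, and sex and diet from the design text.

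All 18095 identifiers matched GENCODE M21. The raw counts were tested with edgeR 4.0.16 (TMM, filterByExpr, glmQLFit and glmQLFTest, no covariate) in R 4.3.3 on the 14866 genes that passed the filter, with Benjamini-Hochberg adjustment over all of them. Calls required a fold change over 1.3 and an adjusted p below 0.1, cut-offs that the authors applied with DESeq2 to HISAT2 and STAR counts separately, keeping genes that passed in both. STAR counts were not analysed here. The biological coefficient of variation was 0.251, and the procedure was tested on simulated data. Single values and ratios were tested with two-sided exact permutation tests over the 70 arrangements of the 8 libraries (Python 3.11.15, scipy 1.17.1). Confidence intervals and p-values set the difference between genotypes against the variation between these 8 mice. Alternatives were DESeq2 1.42.0, other normalizations, filters and thresholds, a block for the replicate number, and leaving out 1 library at a time.

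The 5 genes and the gene lists were chosen with earlier results of these data known. The genes named are the 5, their families, the GH signalling genes, the called genes of the lists, and the 10 genes most like the mean of the 5 on each of 2 measures, some of which are not reported here. Cyp2b10, Saa1, Nr1d1, Per1, Bcl6, Hnf4a, Slc22a27, Hao2, Cyp2b13, Cyp3a16 and Cidec, and the ratios within libraries, were chosen after their values were seen. So were Dbp, Krt7, Sox9, Spp1, Lrat and Hba-a1.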

Additional observations from a re-analysis of the deposited data

Results flagged for a closer look

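In groups of 4, the gap between the most extreme library and its neighbour was set against the range of the group for 110 groups, of which chance marks about 1 in 20, or 5.5. It marked 9, and none of them was a library of the 5 genes or of their mean. Among relatives of the 5 genes, Elovl2 was at 547 CPM in HFD Inpp4b-/- replicate 2, where the next library had 723 CPM. Hsd3b3 was at 132 CPM in HFD Inpp4b-/- replicate 4, where the next had 62.7 CPM. Slco1a4 was at 154 CPM in HFD WT replicate 2, where the next had 21.6 CPM.

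Of the GH signalling genes, Socs1 was at 3.05 CPM and Socs3 at 66.3 CPM in HFD Inpp4b-/- replicate 1, where the next libraries had 0.604 and 14.1 CPM. Igfbp3 was at 20.6 CPM in HFD WT replicate 4, where the next had 17.2 CPM. Of the sex-biased genes, Mup20 was at 807 CPM in HFD Inpp4b-/- replicate 4, where the next had 299.7 CPM. Serpina1e was at 11592 CPM in HFD WT replicate 3, where the next had 6408 CPM. Cyp2b9 was at 10.3 CPM in HFD WT replicate 2, where the next had 1.66 CPM. HFD WT replicate 2 and HFD Inpp4b-/- replicates 1 and 4 were marked for 2 genes each.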

How the results depend on the processing

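Hsd3b5 and Selenbp2 were lower in HFD Inpp4b-/- under each normalization, filter and tool tried and without any 1 library. Hsd3b5 passed the thresholds with DESeq2 (log2 fold change -0.68), so the number of the 5 genes called was 1 there and 0 under the other settings. The signs of Slco1a1 and Cyp2d9 were not fixed. Slco1a1 was at 0.0081 with upper quartile normalization, and Cyp2d9 at -0.00061 with DESeq2 and -0.0010 with DESeq2 size factors in edgeR. With these 2 settings, Igf1 was at -0.0024 and -0.0029 and Slco2b1 at -0.0080 and -0.0084.

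The count of 174 genes called was 688 with DESeq2 and 71 at an adjusted p under 0.05. DESeq2 called 2 of the GH signalling genes, 12 of the other male-biased and 5 of the female-biased genes. Leaving out each library in turn gave 53 to 345 called genes (53 without HFD Inpp4b-/- replicate 2, 345 without HFD WT replicate 2), 3 to 11 male-biased, 0 to 3 female-biased and 0 to 1 GH signalling genes. Log2 fold changes then ranged from -0.77 to 0.18 for Elovl3, -0.79 to -0.54 for Hsd3b5, -0.0617 to 0.0445 for Slco1a1, -0.0712 to 0.13 for Cyp2d9 and -2.06 to -1.28 for Selenbp2. Among other genes whose sign changed, they ranged from -0.0391 to 0.10 for Elovl1, -0.50 to 0.0793 for Elovl6, -1.06 to 0.77 for Slco1a4, -0.16 to 0.0125 for Slco1b2, -0.0616 to 0.0681 for Slco2b1, -0.16 to 0.23 for Slco3a1, -0.0413 to 0.66 for Cyp2d11, -0.0211 to 0.16 for Cyp2d22, -0.67 to 1.34 for Socs1, -0.59 to 0.56 for Socs2, -1.68 to 0.80 for Socs3 and -0.11 to 0.13 for Igf1.

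The replicate numbers name mice and did not pair them, as deviations of same-numbered libraries from their group means correlated at -0.17 to -0.01. With the replicate block, 26 genes and 2 male-biased genes were called. Most named genes that edgeR had called lost that call with the block, namely Cyp7b1, Mup20, C6, Serpina1e, Gstp1 and Hba-a2. Foxa2, Cyp4a12b, Moxd1 and Cyp2b9 kept it. Hsd3b5 had an adjusted p of 0.414 and Selenbp2 of 0.434 in edgeR with the block. The sign changed to 0.17 for Slco1a4, -0.0042 for Slco2b1, 0.023 for Socs2, 0.16 for Socs3 and -0.015 for Igf1. The causes of these changes were not tested. With 4 mice per genotype, the wide intervals of Elovl3 and Selenbp2 limit what can be said of them, and Inpp4b was too low in liver to check the labels firmly.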

Other observations

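Genes outside all lists were ranked by how closely their log2 CPM followed the mean of the 5 genes, among 11555 genes that averaged at least 50 counts. Over the 8 libraries the highest Pearson r were those of Hsd17b12 (0.97), which encodes a ketoacyl reductase of fatty acid elongation, Lancl1 (0.97), Mfsd5 (0.96) and Oxct1 (0.95), which encodes an enzyme of ketone body use. Rpn2, Slc35b3, Ppat, Rrp12, Cadm4 and Mybbp1a followed with r of 0.94 to 0.95. None of these 10 genes was called between the genotypes by edgeR, and all 10 log2 fold changes were negative, from -0.85 for Cadm4 to -0.11 for Slc35b3.

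After the mean of its genotype was taken from each value, the 10 closest genes included Mfsd5 (r of 0.98), Topors, 2810408I11Rik, Slc35b3, Ss18l2, Acaa2, Smim4, Lancl1 and Hsd17b12 (0.94). Mfsd5, Slc35b3, Lancl1 and Hsd17b12 were thus among the 10 on both measures. The r values are descriptions over 8 libraries that share a normalization, and the ranking took the highest of many genes.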
